A study of Mus musculus with 12 samples.

Results

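The ceramide synthases described here are Cers2, Cers3, Cers4, Cers5 and Cers6, 5 of the 20981 genes listed in each of 3 deposited comparisons of RNA from Mael-/- mouse testes. They were taken by symbol as a gene family that was chosen by the high ratio of Cers3 in RNA recovered with L1 ORF1p over the other groups. The same ratios are therefore given for all 5 genes as a description, with no test. The remaining mammalian family member, Cers1, has 0 gene rows in these tables and was not analysed here.

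Ceramide synthases are membrane enzymes of the endoplasmic reticulum that join a fatty acyl chain, supplied as its CoA ester, to a sphingoid base. Each isoform prefers acyl chains of a certain length. Cers2 favours very long chains, Cers4 long chains, and Cers5 and Cers6 mainly palmitoyl chains. Cers3 handles ultra-long chains, including the polyunsaturated ones found in sphingolipids of male germ cells, and is also known for its part in the skin barrier. L1 ORF1p is the RNA-binding protein encoded by the first reading frame of the LINE-1 retrotransposon.

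The study sequenced 12 libraries, 3 in each of 4 groups, all from testes of C57BL/6 mice of about 3 months with the genotype Mael-/-, so that every group lacked the piRNA factor Mael and there was no wild-type group. TOTAL is the unfractionated testis extract, cleared by centrifugation and with 10 mM EDTA added. INPUT is the pool of sucrose gradient fractions 5 to 8 of that extract. IP is the RNA recovered from INPUT with an anti-ORF1p antibody coupled to beads, and BO is the RNA held by beads with no antibody. The labels call the 3 libraries of a group biological replicates and do not say how many animals stand behind each. Libraries of IP were made from less RNA than those of TOTAL and INPUT, and BO was taken by volume.

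The mean normalized count of Mael was 0.65 in TOTAL, 0.502 in BO and 0 in both INPUT and IP. L1Md_A, a young L1 subfamily, had normalized counts of 56029 to 95645 in the IP libraries and of 14131 to 27258 in the other 9. LSU rRNA took 52.1% of the reads on repeat subfamilies in BO replicate 3 and at most 15.9% in any other library. The gene tables give BO only as a mean over its libraries, so no BO value could be recomputed without that one. Of 8 spermatid markers, 7 had an average mean under 10 in at least one comparison, among them the protamines Prm1 and Prm2 and the transition proteins Tnp1 and Tnp2. Their means in TOTAL were 22.0 for Prm1, 13.2 for Prm2, 30.1 for Tnp1 and 39.3 for Tnp2.

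To show how the family members differ from Cers3, a stretch of 60 coding bases spanning an exon junction is printed for each. It was read from the GENCODE M21 transcripts (GRCm38, the assembly of mm10). It is the same stretch of the aligned coding sequences in all 5 genes. The stretch was picked for likeness, as the ungapped one whose least similar member was closest to Cers3. Capitals mark bases that differ from Cers3, and Cers3 itself is therefore in lower case.

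Cers3, chr7:66784817-66786018, plus strand, exons 7 and 8: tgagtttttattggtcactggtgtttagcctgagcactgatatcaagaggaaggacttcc

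Cers2, chr3:95321615-95321837, plus strand, exons 7 and 8: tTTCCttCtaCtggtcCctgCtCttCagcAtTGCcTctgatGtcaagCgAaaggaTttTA

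Cers4, chr8:4520256-4520560, plus strand, exons 7 and 8: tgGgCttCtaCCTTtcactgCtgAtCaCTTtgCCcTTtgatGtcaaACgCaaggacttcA

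Cers5, chr15:99739724-99740996, minus strand, exons 6 and 7: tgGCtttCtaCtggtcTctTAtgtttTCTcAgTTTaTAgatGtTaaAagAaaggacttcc

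Cers6, chr2:69050820-69068635, plus strand, exons 6 and 7: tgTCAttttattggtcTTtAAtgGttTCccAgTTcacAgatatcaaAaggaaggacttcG

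The coordinates include the intron between the exons, and the sequence does not. Over these 60 bases Cers6 differed from Cers3 at 16 positions, Cers5 at 20, Cers2 at 21 and Cers4 at 22. Over the whole aligned coding sequence Cers3 was 59.0% identical to Cers2, 52.9% to Cers4, 51.1% to Cers6 and 49.2% to Cers5. The closest pair was Cers5 and Cers6, at 63.3%, and the longest run any pair shared was 18 bases. No window of 75 bases, the read length, occurred in the annotated transcripts of more than 1 of the 5 genes, nor on the sense strand of any other annotated gene.

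The Cers3 gene lies at chr7:66743504-66823691 on the plus strand, and no other annotated gene overlaps it. Its longest transcript has 3250 bases. Cers2 (chr3:95314791-95323599, plus strand) has a longest transcript of 2216 bases, and Cers5 (chr15:99734881-99772885, minus strand) of 2775. Cers6 (chr2:68861441-69114282, plus strand) reaches 7038 bases and Cers4 (chr8:4493026-4531680, plus strand) 9475. Exons of Cers2, Cers4 and Cers5 overlap genes on the opposite strand, over 2063 bases for Vmn2r-ps89 in Cers4 and 835 bases for Gm17058 in Cers5. The library kit keeps strand. Whether the gene counts used it is not given in the sources used here, so reads of those partners may be among the counts of these 3 genes.

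The deposited gene values are mean normalized counts per group, and each comparison has a scale of its own. For IP alone the 3 tables together allowed whole reads per library to be recovered, which gives an SD for IP and for no other group. The 3 IP libraries are called the first, the second and the third here, an order that is not tied to their replicate numbers. They held 21387454, 19754089 and 20549345 reads on genes. In bulk RNA, fewer cells of a type and less of a transcript per cell cannot be told apart.

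Cers3 was a minor ceramide synthase in the unfractionated testis extract and the leading one by reads after immunoprecipitation. Its mean normalized count was 248 in TOTAL, against 2952 ± 730 (SD, n = 3) in IP on the same scale. It was 318 in INPUT, against 2957 ± 657 (SD, n = 3) in IP. Beads with no antibody held a mean of 226, against 2258 ± 528 (SD, n = 3) in IP. The ratio of means was thus 11.9 for IP over TOTAL, 9.30 over INPUT and 10.0 over BO, or 3.57, 3.22 and 3.32 on the log2 scale.

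The first IP library held 2386 reads of Cers3, the second 2381 and the third 2914. On the scale shared with TOTAL these are normalized counts of 2329, 2774 and 3755. The third library was the highest and the first the lowest, and each lay far above the mean of every other group. The lowest of the 3 libraries was 9.38 times the TOTAL mean, 7.46 times the INPUT mean and 7.89 times the BO mean. The highest was 15.1, 11.5 and 12.5 times these means. The spread of TOTAL, INPUT and BO between libraries cannot be seen in their means. Counting error alone contributes a standard error of at most 0.05 to the log2 ratio over INPUT, 0.05 over TOTAL and 0.07 over BO.

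**Figure D1:**
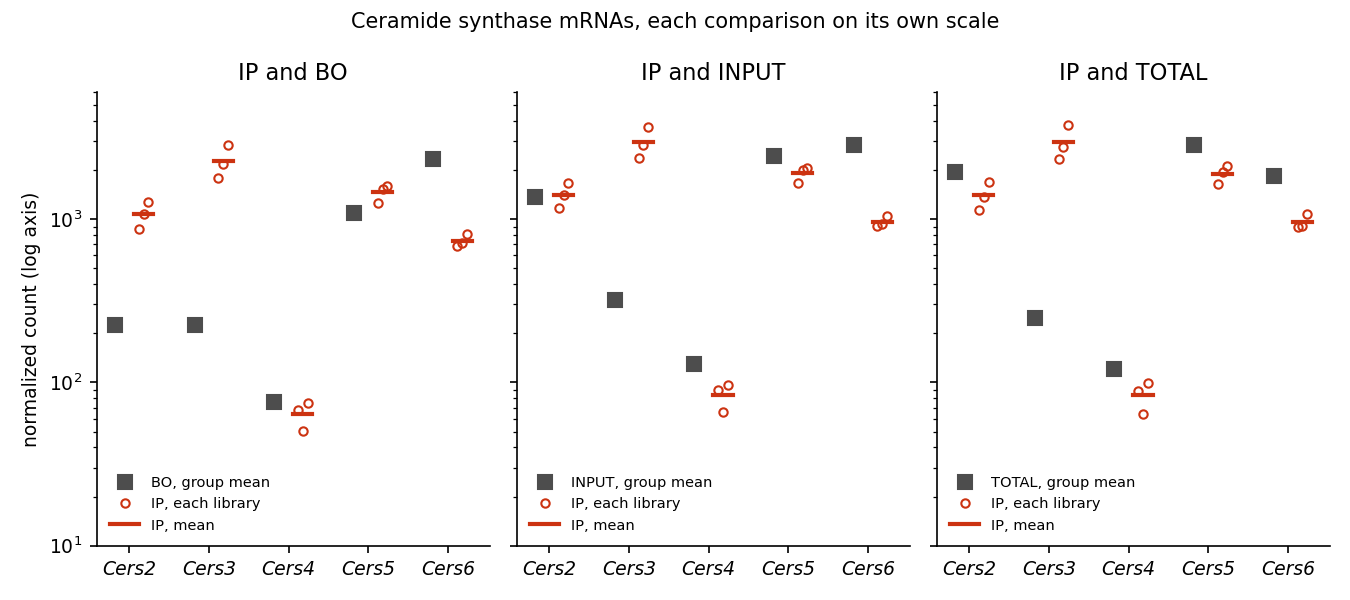
Normalized counts of the 5 ceramide synthases on a log axis, with a panel for each comparison on its own scale. Grey squares are the deposited mean of BO, INPUT or TOTAL, open circles the 3 IP libraries and red lines their mean. All IP circles of Cers3 lie above the grey square in every panel, those of Cers6 lie below it, and those of Cers2 lie all above it for BO alone.

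Among the genes with an average of the compared means of at least 10, Cers3 stood in place 13 of 14666 when ordered by the ratio of IP over TOTAL. It stood in place 19 of 14400 for IP over INPUT and in place 162 of 13634 for IP over BO. A ratio of at least 2 in favour of IP was found for 20.6% of genes against TOTAL, 20.7% against INPUT and 44.4% against BO. The same held in all 3 comparisons for 11.1% of 13566 genes, Cers3 among them. Since these comparisons chose Cers3, nothing is read from its place beyond the values themselves.

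**Figure D2:**
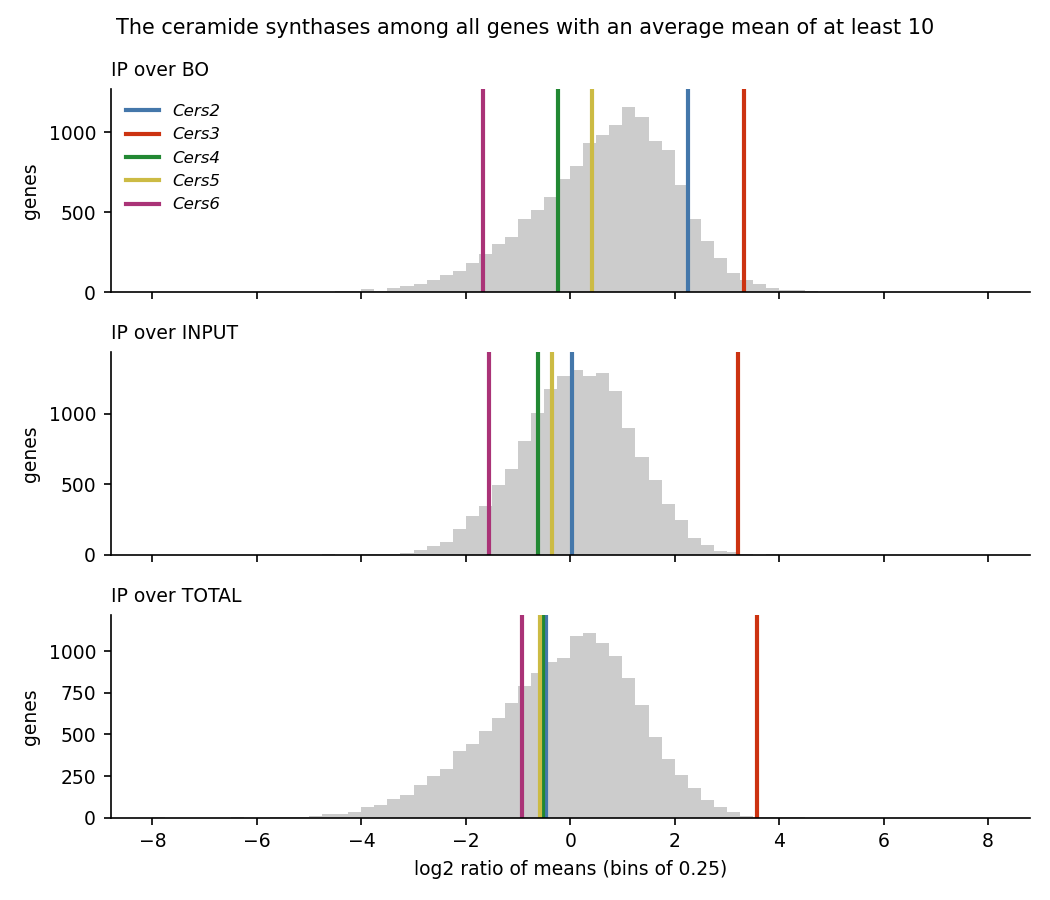
Number of genes in bins of 0.25 of the log2 ratio of means, for genes with an average mean of at least 10, with a coloured line at the value of each ceramide synthase. Cers3 lies in the right tail in all 3 panels, at 3.32, 3.22 and 3.57, while the other members lie within the bulk of genes for IP over TOTAL.

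Cers2 was abundant in the extract and in the fractions and scarce on bare beads. Its mean normalized count was 1937 in TOTAL, against 1400 ± 277 (SD, n = 3) in IP, and 1370 in INPUT, against 1403 ± 245 (SD, n = 3) in IP. The 3 IP libraries spanned 1162 to 1652 on the INPUT scale, on both sides of the INPUT mean. Against TOTAL all 3 lay lower, between 0.590 and 0.874 times its mean. BO had a mean of only 224, against 1071 ± 200 (SD, n = 3) in IP. Cers2 was therefore 4.77 times higher in IP than in BO, a log2 ratio of 2.25, with log2 ratios of 0.03 over INPUT and -0.47 over TOTAL. The value over INPUT turned to -0.12, -0.38 and -0.50 when the tables were centred on the median gene, scaled by the upper quartile or scaled to the summed gene means. The IP libraries held 1170, 1172 and 1313 reads of Cers2.

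Against bare beads Cers2 and Cers3 were thus the members at least 2-fold higher in IP, 2 of 5 where 44.4% of genes were. Centred on the median gene, both were still 2-fold higher, at 1.43 and 2.50, where 18.8% of genes were. Against INPUT and TOTAL Cers3 was the single such member, 1 of 5 where 20.7% and 20.6% of genes were, which is close to the background. The means of Cers2 and Cers3 in BO were alike, 224 and 226, whereas in INPUT Cers2 was 4.31 times Cers3 and in TOTAL 7.80 times, before any division by length.

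Cers5, a palmitoyl-preferring isoform, had the highest count of the family in TOTAL. Its mean was 2839 in TOTAL, against 1900 ± 245 (SD, n = 3) in IP, and 2428 in INPUT, against 1907 ± 215 (SD, n = 3) in IP. In BO it was 1090, against 1455 ± 182 (SD, n = 3) in IP. The 3 IP libraries held 1674, 1672 and 1643 reads. All 3 lay under the means of TOTAL and INPUT and over the mean of BO. The log2 ratios were -0.58 over TOTAL, -0.35 over INPUT and 0.42 over BO, none of them reaching 2-fold. The last turned to -0.41 when the table was centred on the median gene and to -0.26 when it was scaled by the upper quartile.

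Cers6, which shares the chain preference of Cers5, had the lowest ratios of the family in all 3 comparisons. Its mean was 2841 in INPUT, against 962 ± 71.6 (SD, n = 3) in IP, and 2346 in BO, against 734 ± 62.8 (SD, n = 3) in IP. In TOTAL it was 1825, against 959 ± 96.1 (SD, n = 3) in IP. The 3 IP libraries held 919, 781 and 830 reads and lay under the mean of every other group. INPUT was 2.95 times IP, BO 3.20 times and TOTAL 1.90 times. On the deposited scale Cers6 was the single member at least 2-fold lower in IP than in BO and in INPUT, where 11.4% and 14.9% of genes were. Against TOTAL 0 of 5 members were, where 26.5% of genes were, but Cers6 passed that line, at -1.01, without the third IP library.

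Cers4, which favours long chains, was the lowest member in every group. Its mean was 120 in TOTAL, against 84.0 ± 18.1 (SD, n = 3) in IP, and 129 in INPUT, against 84.2 ± 16.6 (SD, n = 3) in IP. In BO it was 76.0, against 64.2 ± 12.7 (SD, n = 3) in IP. The 3 IP libraries held 91, 55 and 77 reads, and all 3 lay under each of these means. The log2 ratios were -0.51 over TOTAL, -0.62 over INPUT and -0.24 over BO, with a counting standard error of at most 0.12, 0.12 and 0.15.

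**Figure D3:**
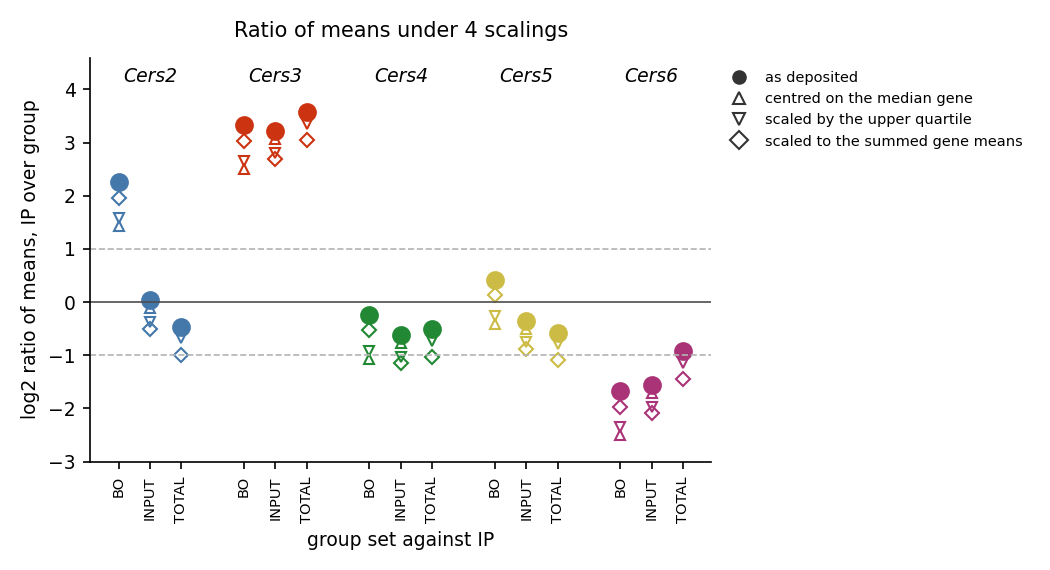
The log2 ratio of means of IP over BO, INPUT and TOTAL for each ceramide synthase, as deposited (filled circles) and after 3 other scalings (open symbols), with dashed lines at 2-fold. Cers3 stays at 2.50 or above in all of them, Cers6 stays below 0, and Cers2 over INPUT and Cers5 over BO lie on both sides of 0.

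A common scaling shifts all members alike, and the shift is sizeable in these tables. The median gene had a log2 ratio of 0.82 for IP over BO, 0.15 over INPUT and -0.03 over TOTAL. Relative to the median gene, Cers3 was at 2.50 over BO, 3.07 over INPUT and 3.60 over TOTAL. Cers6 was at -2.50, -1.71 and -0.90 in the same order, and Cers4 at -1.07, -0.77 and -0.49. Cers4 thereby crossed the 2-fold line over BO, where 24.4% of genes were at least 2-fold lower. It also did so over INPUT, at -1.03 when scaled by the upper quartile and at -1.15 when scaled to the summed gene means. Over INPUT 24.8% and 28.5% of genes were 2-fold lower under these scalings. Scaling to the summed gene means brought Cers4 to -1.03, Cers5 to -1.10 and Cers6 to -1.45 over TOTAL. These members thus crossed the 2-fold line there, where 38.2% of genes were 2-fold lower. Cers6 also did so by the upper quartile, at -1.14, where 31.1% of genes were.

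The ratio of Cers3 to a paralog within a library does not depend on that scaling. In the 3 IP libraries Cers3 had between 2.03 and 2.22 times the reads of Cers2, between 1.42 and 1.77 times those of Cers5, and between 2.596 and 3.51 times those of Cers6. For Cers4 the range was 26.2 to 43.3. In TOTAL, by contrast, Cers5 was 11.4 times Cers3 and Cers6 7.35 times. In INPUT Cers5 was 7.64 times Cers3 and Cers6 8.94 times, and in BO they were 4.83 and 10.4 times. Cers3 was 2.07 times Cers4 in TOTAL, 2.46 times in INPUT and 2.97 times in BO, and 1.01 times Cers2 in BO.

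Set against its paralogs, Cers3 gained between IP and TOTAL 16.5-fold over Cers2, 17.0-fold over Cers4, 17.8-fold over Cers5 and 22.6-fold over Cers6. Between IP and INPUT the gains were 9.08-, 14.3-, 11.8- and 27.5-fold in the same order. Between IP and BO they were 2.10-, 11.8-, 7.50- and 32.0-fold. The smallest gain was thus the one over Cers2 against bare beads. In the log2 ratio of Cers3 to a paralog, the 3 IP libraries had an SD of 0.07 for Cers2, 0.18 for Cers5, 0.22 for Cers6 and 0.37 for Cers4.

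Cers3 took 3.56% of the summed member means in TOTAL, 4.49% in INPUT, 5.69% in BO and 40.5% in IP. Of the family's reads it took 38.2% in the first IP library (2386 of 6240; 95% Wilson interval 37.0 to 39.4), 39.3% in the second (2381 of 6061; 38.1 to 40.5) and 43.0% in the third (2914 of 6777; 41.8 to 44.2). These intervals cover counting error only. The mean over IP libraries was 40.2% ± 2.50 (SD, n = 3), and the lowest lay above the share in every other group. Cers6 went the other way, from 40.1% in INPUT and 59.2% in BO to 13.3% ± 1.29 (SD, n = 3) in IP. Cers2 had 27.8% in TOTAL, 19.3% in INPUT, 5.66% in BO and 19.2% ± 0.350 (SD, n = 3) in IP.

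**Figure D4:**
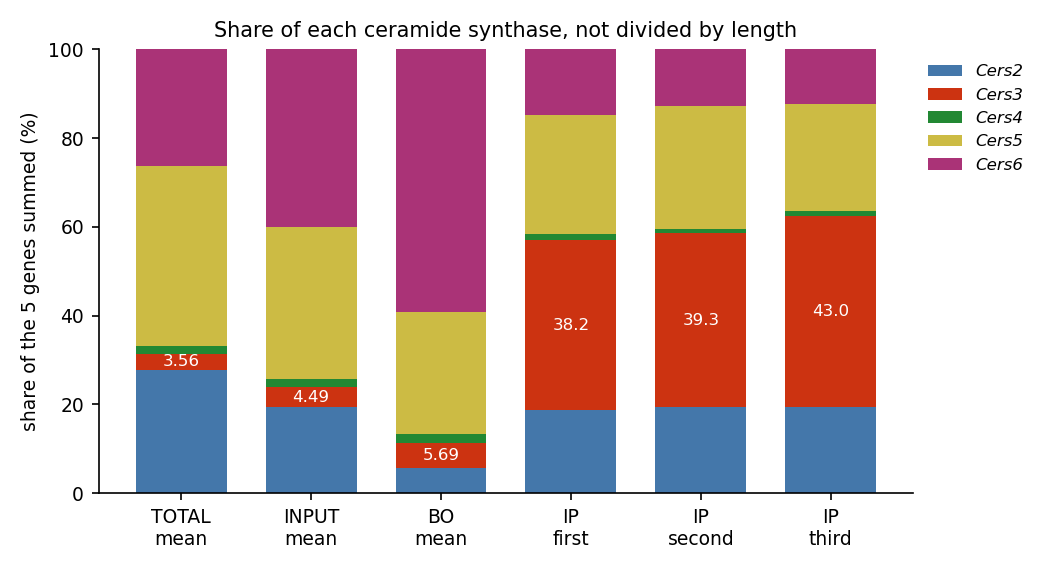
Share of each ceramide synthase in the sum over the 5 genes, in percent and not divided by length, for the means of TOTAL, INPUT and BO and for each IP library. The share of Cers3, printed in white, is 3.56, 4.49 and 5.69 in the group means and 38.2, 39.3 and 43.0 in the IP libraries.

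Longer transcripts yield more reads, so levels of different members were also compared per kb of the longest transcript. The annotation behind the counts is not given, so these GENCODE M21 lengths may differ from those counted. In Cers4, 7900 bases of the longest transcript follow the coding part, and in Cers6 5688, so their values per kb rest most on the model used. On this scale Cers5 had 1023 normalized counts per kb in TOTAL, Cers2 874, Cers6 259, Cers3 76.4 and Cers4 12.7. In INPUT the order was the same, with Cers5 at 875, Cers2 at 618, Cers6 at 404, Cers3 at 97.8 and Cers4 at 13.6. In IP, on the scale shared with TOTAL, Cers3 came first at 908, followed by Cers5 at 685, Cers2 at 632, Cers6 at 136 and Cers4 at 8.87. Whether neighbours in the order of TOTAL or INPUT differ beyond their spread cannot be told from means. In each of the 3 IP libraries Cers3 was above Cers5 per kb of the longest transcript. Its share of the family per kb was 3.40% in TOTAL, 4.87% in INPUT, 7.67% in BO and 38.3% in IP. With the median transcript of each gene in place of the longest, the share was 1.81%, 2.35%, 3.13% and 25.2%, and Cers2 led in IP with 32.5%. Cers3 was then below Cers5 in the first IP library, 23.6% against 26.4%, and in the second, 24.3% against 27.2%. That median includes transcripts with no coding part, since 4 of 9 are coding for Cers2 and 2 of 7 for Cers6. It was 811 bases for Cers2 and 1134 for Cers6, less than their longest coding sequences of 1140 and 1176. The order by the median transcript is therefore the less certain one.

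On the deposited scale the family as a whole hardly moved between INPUT and IP. The summed means were 7313 in IP and 7086 in INPUT, a ratio of 1.03, and the ratio of IP over TOTAL was 1.05. Without Cers3 the ratios were 0.644 and 0.646. Against BO the ratio was 1.41, and 0.889 without Cers3. These ratios of sums move with the scaling. Over BO the ratio turned to 0.796 when centred on the median gene and 0.884 by the upper quartile. Over INPUT it turned to 0.929, 0.777 and 0.713 when centred, by the upper quartile and by summed gene means. Over TOTAL it turned to 0.903 by the upper quartile and 0.731 by summed gene means.

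Fractionation came before immunoprecipitation. Taken through the IP libraries common to both tables, the log2 ratio of INPUT over TOTAL was 0.35 for Cers3, 0.63 for Cers6, 0.10 for Cers4, -0.23 for Cers5 and -0.50 for Cers2, with a median over 13566 genes of -0.13. Cers3 was above 75.2% of those genes and Cers6 above 88.2%. From INPUT to bare beads the log2 ratio was 0.12 for Cers6, -0.11 for Cers3, -0.38 for Cers4 and -0.76 for Cers5, with a median of -0.55. Cers2 fell by 2.22 on this scale, lower than all but 6.32% of genes. These ratios join tables that were normalized separately.

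Genes near Cers3 in all 3 log2 ratios were found by Euclidean distance over 13565 other genes with an average mean of at least 10 in every comparison. Of these, 3 lay within a distance of 0.5. Cers3 was chosen by the same ratios and lies in their tail, so nothing is read from that count. The nearest was Glipr1l2, a member of the GLIPR1-like family, at 0.14, with log2 ratios of 3.35 over BO, 3.29 over INPUT and 3.46 over TOTAL. Next came Cyp19a1, the aromatase that makes oestrogens, at 0.26, and Ptprq, a receptor-type phosphatase, at 0.44. Sycp1-ps1, listed as a pseudogene of the synaptonemal complex gene Sycp1, followed at 0.58, and Tktl1, a transketolase-like gene, at 0.59. The IP libraries held 766, 831 and 623 reads of Glipr1l2 and 30, 17 and 30 of Cyp19a1. Cyp19a1, with means of 2.44 in BO, 3.17 in INPUT and 2.88 in TOTAL, passed the minimum through IP alone. Counts of Sycp1-ps1 may hold reads of Sycp1 and are uncertain.

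Of the 5 marker lists, that of spermatocytes moved with Cers3. Of 8 spermatocyte markers, 8 were at least 2-fold higher in IP than in BO, in INPUT and in TOTAL, where 11.1% of all genes were, with median log2 ratios of 3.18, 2.52 and 2.52. The count was 8 under each of the 3 other scalings too, where 6.62% of all genes were called when centred on the median gene, 5.59% by the upper quartile and 4.96% by the summed gene means. Their summed means were 22648 in TOTAL and 141603 in IP on the scale shared with TOTAL. The sums of 23100 in INPUT and 9794 in BO are on scales of their own and give no ratio to that IP value. Sycp3, an element of the synaptonemal complex, had log2 ratios of 3.94 over BO, 3.06 over INPUT and 2.25 over TOTAL. It was the highest of the 8 over BO and over INPUT. Hspa2 was the lowest of the 8 in all 3 comparisons, at 1.96, 1.65 and 2.04 in the same order. Of 7 spermatogonia markers above the minimum, 0 were 2-fold higher in all 3 comparisons, and their median log2 ratios were 0.65 over BO, -0.78 over INPUT and -0.61 over TOTAL. For 8 Sertoli cell markers these medians were -0.63, -1.48 and -1.71, and for 7 Leydig cell markers 0.40, -1.60 and -2.58, again with 0 higher in all 3. Against BO alone 3 of the spermatogonia and 2 of the Leydig cell markers were 2-fold higher, where 44.4% of all genes were. Of the spermatid markers, Spaca1 was the single one above the minimum in every comparison, at 2.12, 1.49 and 0.01. Prm1, Tnp1, Tnp2 and Odf1 passed it against TOTAL through TOTAL alone, with IP means of 0.859, 0.714, 0.714 and 1.63. The part of cell type in the values of Cers3 was not tested.

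The genes that supply and use ceramide did not move as a block. Lists of 67 sphingolipid genes in 4 groups were fixed by name, and 62 of these reached the minimum in every comparison. Of the 62, 6 were at least 2-fold higher in IP than in all 3 other groups and 9 were at least 2-fold lower, where 11.1% and 3.71% of all genes were. Of the 6, Sptlc3 and Fa2h passed the minimum in BO and INPUT through their IP mean alone, so these counts describe the list and support nothing. Centred on the median gene, the counts were 3 higher, namely Sptlc3, Fa2h and Smpd4, and 10 lower, where 6.62% and 6.37% of all genes were. Scaled by the upper quartile they were 5 and 13, where 5.59% and 7.56% of all genes were. By the summed gene means they were 4 and 12, where 4.96% and 7.25% were. Over the 4 lists the median log2 ratio was 0.59 over BO, -0.38 over INPUT and -0.70 over TOTAL, beside 0.82, 0.15 and -0.03 over all genes.

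In de novo synthesis, upstream of the ceramide synthases, 1 of 9 measured genes was higher in all 3 comparisons and 2 were lower, beside 11.1% and 3.71% of all genes. The higher one was Sptlc3, a subunit of serine palmitoyltransferase, with log2 ratios of 3.61 over BO, 3.15 over INPUT and 1.497 over TOTAL. The last was 0.98 when scaled to the summed gene means, under 2-fold. It was scarce, with a mean of 31.2 in IP and 11.1 in TOTAL, and its means of 1.97 in BO and 3.54 in INPUT left it to pass the minimum there through IP. Sptssa, the small activating subunit of the same enzyme, was at the other end, with a log2 ratio of -2.99 over TOTAL, from a mean of 1650 to 207 in IP.

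Genes of fatty acid elongation and activation, which provide the acyl chains, were mostly lower in IP than in TOTAL. Of 18 measured against TOTAL, 12 were at least 2-fold lower, where 26.5% of all genes were, and 1 was higher, where 20.6% were. The median log2 ratio of the 18 was -1.21. Centred on the median gene, 10 of the 18 were lower, where 26% of all genes were. The count was 14 by the upper quartile and 14 by the summed gene means, where 31.1% and 38.2% were. Against INPUT 6 of 18 were lower, where 14.9% of all genes were, and 1 was higher, where 20.7% were. The lower ones numbered 8 when centred on the median gene, 11 by the upper quartile and 12 by the summed gene means. Of all genes 18.3%, 24.8% and 28.5% were lower in the same order. Against BO 4 of 17 were lower, where 11.4% were, and 5 were higher, where 44.4% were. This balance turned round when centred on the median gene, with 6 lower and 2 higher, where 24.4% and 18.8% were. By the upper quartile there were also 6 lower and 2 higher, where 21.6% and 23% were. The summed gene means gave 5 lower and 3 higher, where 15.2% and 34.7% were. Elovl5, an elongase of polyunsaturated chains, had log2 ratios of -2.71 over BO, -1.93 over INPUT and -2.42 over TOTAL, with a mean of 11280 in TOTAL and 2110 in IP. Tecr, the reductase of the elongation cycle, was at -2.95 over TOTAL and at 1.05 over BO. Ptplad2, a dehydratase of the same cycle now named Hacd4, was at -2.17 over INPUT and -2.65 over TOTAL. Elovl2, which lengthens polyunsaturated chains, was at -0.36, -0.93 and -1.10, and Elovl4, which makes the longest ones, at 0.27, 0.58 and 0.21, in the order BO, INPUT and TOTAL. The gene that was higher in all 3 comparisons was Fa2h, the fatty acid 2-hydroxylase, at 2.42, 2.42 and 2.26. Its means were 7.30 in BO, 9.52 in INPUT and 10.7 in TOTAL, against 51.2 in IP. The 3 IP libraries of Fa2h were uneven, at 22.4, 38.4 and 92.8 on the scale shared with TOTAL. Without the third, the IP mean was 30.4 and the log2 ratios were 1.69, 1.71 and 1.51.

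Among genes that turn ceramide into complex sphingolipids, 1 of 13 was higher in all 3 comparisons and 1 was lower, beside 11.1% and 3.71% of all genes. Ugt8a, which adds galactose to ceramide, had means of 768 in TOTAL and 3919 in IP on the same scale, with log2 ratios of 1.78 over BO, 1.82 over INPUT and 2.35 over TOTAL. Centred on the median gene it was at 0.96 over BO, under 2-fold. Sgms2, a sphingomyelin synthase, was at -2.54, -1.49 and -1.47.

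In sphingolipid breakdown 3 of 23 measured genes were higher in all 3 comparisons, where 11.1% of all genes were, and 3 were lower, where 3.71% were. Smpd4, a neutral sphingomyelinase, had means of 1281 in TOTAL and 5675 in IP and log2 ratios of 2.90 over BO, 1.81 over INPUT and 2.15 over TOTAL. Acer3, an alkaline ceramidase, was at 1.76, 2.00 and 1.79, and Smpd3, another neutral sphingomyelinase, at 1.47, 1.13 and 1.90. Centred on the median gene, Acer3 was at 0.94 over BO and Smpd3 at 0.65 over BO and 0.98 over INPUT, so that Smpd4 alone of the 3 kept the call. Asah2, the neutral ceramidase, was lower, at -2.00, -1.57 and -1.59. Smpdl3b, an acid sphingomyelinase-like enzyme, was at -2.16 over INPUT and at 0.93 over BO. None of the 63 list genes above the minimum reached the ratio of Cers3 over TOTAL, but Cers3 was chosen by such ratios, so nothing is read from this. Over BO Sptlc3 was above it, at 3.61 with a counting standard error of at most 0.74, against 3.32 for Cers3. Over INPUT Sptlc3, at 3.15, was within its counting standard error, at most 0.47, of Cers3. Without the third IP library Sptlc3 was at 3.39 against 3.03 for Cers3. The order was the other way without the first, 3.26 against 3.35, and without the second, 2.73 against 3.25.

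**Figure D5:**
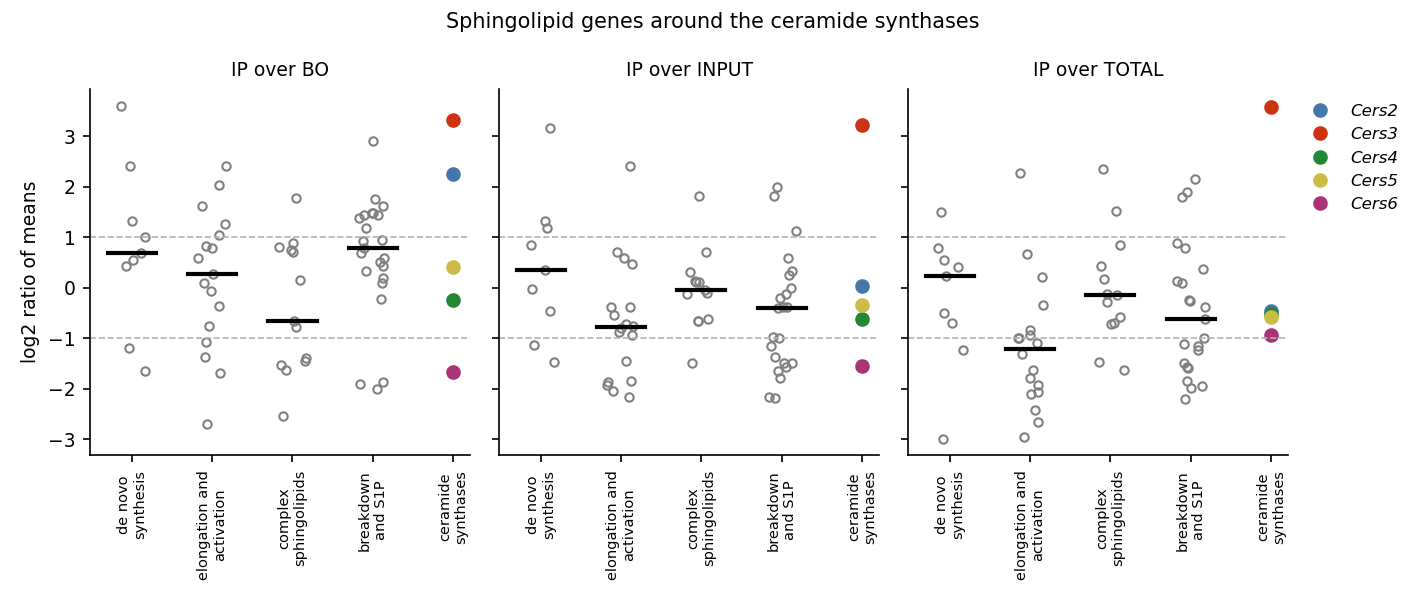
The log2 ratio of means of IP over BO, INPUT and TOTAL for genes of 4 sphingolipid lists (open circles, black bar at the median) and for the 5 ceramide synthases (coloured). Dashed lines mark 2-fold. Cers3 is the highest point for IP over TOTAL, and Sptlc3, at 3.61 over BO and 3.15 over INPUT, lies above it in the first panel and beside it in the second.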

How the data were processed

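RNA-seq libraries of TOTAL, INPUT, IP and BO from Mael-/- testes were used, 3 per group. Reads were mapped to mm10 with STAR 2.6.0c and normalized with DESeq2 1.24.0, per the submitters' processing notes. For genes the deposited signal is the mean normalized count of each group, computed by the authors separately for IP against BO, INPUT and TOTAL. Their further columns hold fold changes, standard errors, test statistics and p-values, which were not used. A separate table gives the authors' normalized count, also a signal, per repeat subfamily and library. It was used for LSU rRNA and L1Md_A only.

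Of the gene rows, 4 that name no gene (unmapped, multimapping, without feature, ambiguous) were left out. They held 21.6% of the summed means in IP, 36.9% in BO, 29.6% in INPUT and 37.1% in TOTAL. The gene annotation and counting tool are not given in the sources used here.

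Ratios are those of the group means within a table, with no pseudocount. Genes with an average of the compared means of at least 10 were counted, and a ratio of at least 2 was called. No test was made. Since the IP means appear in 3 tables with different size factors, IP reads per library were solved for. Of 385332 rows detected in IP, 385329 came out whole (100% of 19151 genes; tolerance 0.25 reads). Tested on simulated means of 60000 rows, the step recovered 100%. The simulated size factors differed more between tables than those found in the data, so the simulation was an easier case. The depth of the other groups is unknown, but their smallest values bound the counting error. Gene models are GENCODE M21, and coding sequences were aligned with MAFFT 7.526. Python 3.11.15, NumPy 2.4.6 and pandas 2.3.3 were used.

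The members and gene lists were chosen with earlier results of these data known. Genes named beside the members are the list genes at least 2-fold higher in IP in all 3 comparisons, the 3 highest and 3 lowest list genes of each comparison, and the 5 genes nearest to Cers3. One list gene that the rule names is not reported here. Elovl2, Elovl4, Sycp3, Hspa2 and the named spermatid markers were added after their values were seen. Repeat loci inside the members were not analysed here, since the tables used give no positions. Alternatives were pseudocounts of 1 and 10, no minimum or one of 100, 3 other scalings, other transcript lengths, and each IP library left out. Leaving out IP libraries for the named list genes, and rescaling the summed member means and the list counts, were added after the data had been seen.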

Additional observations from a re-analysis of the deposited data

How the results depend on the processing

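Without each IP library in turn, the log2 ratio of Cers3 lay between 3.13 and 3.47 over BO, 3.03 and 3.35 over INPUT, and 3.36 and 3.72 over TOTAL. Centring on the median gene gave 2.50 over BO. Scaling by the upper quartile gave 2.65 over BO and 2.81 over INPUT, and scaling to the summed gene means 2.68 over INPUT and 3.05 over TOTAL. The share of Cers3 was 3.13% in BO and 25.2% in IP per kb of the median transcript, and 9.78% and 46.8% per kb of the exon union. Genes at least 2-fold higher in IP than in BO numbered 6053, and 9130 with no minimum, 2564 centred on the median gene and 3133 scaled by the upper quartile. Those lower numbered 1549, and 2655, 3329 and 2943 in the same order. Against INPUT 2986 were higher, and 4686 with no minimum, 1641 by the upper quartile and 1332 by summed means. There 2150 were lower, and 4078 with no minimum, 1170 at a minimum of 100, 3573 by the upper quartile and 4104 by summed means. Against TOTAL 3020 were higher, and 4590 with no minimum and 1457 by summed means, while 3884 were lower, and 6237 with no minimum and 2444 at a minimum of 100. Cers3 kept its direction, at over 2-fold, in all of these. No paired analysis was possible because the gene tables give means per group, no library of BO, INPUT or TOTAL has a value of its own, and no test was made. For the same reason no replicate of those groups could be left out, and what spread they have is unseen.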
